A study of Gallus gallus with 24 samples.

Results

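Birds dispose of surplus nitrogen mainly as uric acid, which is the end product of purine breakdown because birds lack an active urate oxidase. Uric acid formation in a bird's liver therefore begins with de novo purine synthesis, a chain of reactions that builds inosine monophosphate (IMP) on phosphoribosyl pyrophosphate (PRPP) from glutamine, glycine, aspartate, one-carbon units and bicarbonate. IMP is then degraded through inosine and hypoxanthine to xanthine and urate, while salvage returns free bases to nucleotides.

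The genes described here are 9 genes of this route, chosen by name. PPAT catalyses the first committed step, GART, PFAS, PAICS, ADSL and ATIC carry out the following steps to IMP, PNP splits the nucleosides, HPRT1 salvages hypoxanthine and guanine, and XDH oxidises hypoxanthine and xanthine to urate. Of these 9 genes, 7 were measured. They carried 13 of the 38439 tested probe sets, a probe set being the group of short oligonucleotides that gives 1 value for a transcript. PPAT, PAICS, XDH and HPRT1 had 2 probe sets each, GART had 3, and ADSL and ATIC had 1 each. PFAS and PNP had no probe set under those symbols in the platform annotation and were not analysed here.

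Liver RNA came from male Ross x Ross broilers, a meat-type chicken, with 1 Affymetrix Chicken Genome Array for each of 24 livers. Hatchlings were sampled on day 1 (D1, not yet fed), day 3 (D3) and day 9 (D9, both on starter feed with free access), and embryos in ovo on days 16 (E16), 18 (E18) and 20 (E20) of incubation, with 4 livers at each of the 6 ages. After the D1 sampling the remaining chicks received a Marek's disease vaccine and went to a heated brooder, so D3 and D9 birds were vaccinated and D1 birds and embryos were not. The labels hold the D1 chicks in the incubator for a full day after hatching and the methods for a few hours, so the time from E20 to D1 is not settled, and the labels also name more chicks per hatchling age than the 4 livers on arrays. Every liver was a separate bird. The titles number the replicates without naming a day, and the methods place 1 liver of each age on each hybridization day. The replicate number was therefore taken as the hybridization day. The developmental stage label of the E18 and E20 arrays reads E16 against their titles, and the titles were followed. The step to D3 combines age with the first feeding, the vaccine and the move to the brooder, which cannot be told apart.

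Values are log2 signals of the arrays, so that 1 unit is a doubling, and levels of different probe sets are not compared. The median signal of an array lay between 5.43 and 5.55, and precision is bounded by having 4 arrays an age. A signal under 4.43, the 25th percentile of the probe set means, is called near the floor. Where livers are said not to overlap between ages or groups, the share of all named genes that also separate is not given here. HINTW, a gene of the female W chromosome, read 12.17 on E18 replicate 2 and at most 6.05 on the other arrays, although all birds are labelled male. NPPA, a heart muscle hormone, read 8.11 on D9 replicate 1 and at most 5.23 elsewhere. Results that rest on these arrays are also given without them. Markers of hepatocytes (11 genes measured, of which RBP4 alone lay near the floor) averaged 13.44 to 13.65 across all livers, and none was called in any comparison. Smaller differences did pass the limma test in D3 against D1, such as log2 ratios of -0.45 for FGA (adjusted p = 1e-04) and 0.20 for ALB (adjusted p = 0.0181). The lack of calls thus does not show constant levels. In whole liver, fewer cells of a type and less RNA per cell cannot be told apart.

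XDH, PPAT and PAICS were the members with higher transcript levels after hatching. A gene was called when its adjusted p in limma was at most 0.05 and its log2 ratio at least 0.75 in either direction. In hatchlings against embryos (12 livers each), 3 of the 7 measured members were called higher, against 5.42% of the 13009 named genes, and 0 were called lower, against 4.11% of the named genes. The median log2 ratio of the 7 members was -0.09, against 0.00 over all named genes, so most members did not share the rise of these 3 genes. Over the 6 ages, all 7 members passed the moderated F test at an adjusted p of 0.05, as did 48.3% of the named genes.

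**Figure D1:**
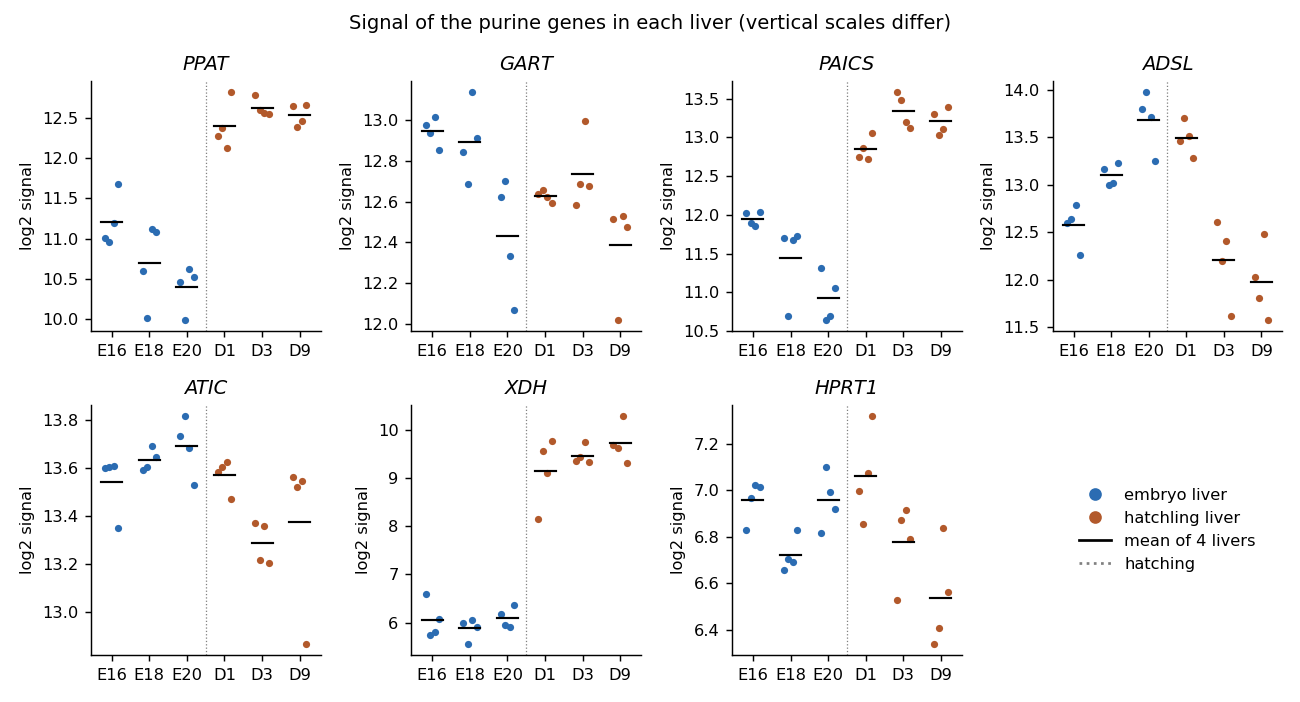
Log2 signal of the 7 measured purine genes in each of 24 livers, by age, 1 point per liver, with the mean of 4 livers as a bar and the time of hatching as a dotted line. XDH, PPAT and PAICS are higher in every hatchling liver than in every embryo liver, ADSL is highest at E20 and D1, whose livers overlap, and GART, ATIC and HPRT1 overlap across hatching. The share of all named genes that separate in this way is not given here.

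XDH, the last enzyme of the route, had the widest range of age means among the members, 3.85 log2 units. At E16 the 4 livers read 6.58, 5.74, 5.81 and 6.08, at E18 5.99, 5.56, 6.04 and 5.91, and at E20 6.18, 5.95, 5.91 and 6.36. At D1 they read 8.16, 9.56, 9.11 and 9.76, at D3 9.35, 9.44, 9.75 and 9.33, and at D9 9.69, 9.62, 10.29 and 9.30. All 12 hatchling livers lay above all 12 embryo livers, and the least of the hatchlings was D1 replicate 1. The ratio was 3.44 ± 0.15 (SE) on the log2 scale in hatchlings against embryos, 10.8-fold (adjusted p = 4.91e-14). On the separate hybridization days the ratio was 2.82, 3.79, 3.79 and 3.35.

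The step lay between E20 and D1, before the first feeding. XDH averaged 9.15 ± 0.71 at D1 and 6.10 ± 0.21 at E20 (SD, n = 4 each), an 8.24-fold difference (log2 ratio 3.04 ± 0.26 SE, adjusted p = 3.35e-08). No neighbouring means among E18, E16 and E20 passed the test, nor did those among D1, D3 and D9, where the log2 ratio was 0.32 for D3 against D1 (adjusted p = 0.597) and 0.26 for D9 against D3 (adjusted p = 0.781). The second XDH probe set stayed near the floor, with age means between 4.21 and 4.35 (adjusted p of the F test = 0.737), and which part of the transcript it reads is not given in the sources used here.

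PPAT, the amidotransferase that commits PRPP to purine synthesis, went through a trough before hatching. Its livers read 11.00, 10.96, 11.19 and 11.68 at E16, 10.60, 10.01, 11.12 and 11.08 at E18, and 10.47, 9.99, 10.63 and 10.52 at E20. After hatching they read 12.27, 12.37, 12.13 and 12.81 at D1, 12.78, 12.59, 12.55 and 12.54 at D3, and 12.64, 12.39, 12.46 and 12.66 at D9. No hatchling liver overlapped an embryo liver, and E20 was lower than E16 in all 4 of its livers. PPAT averaged 12.40 ± 0.29 at D1 and 10.40 ± 0.28 at E20 (SD, n = 4 each), a 3.98-fold rise (log2 ratio 1.99 ± 0.20 SE, adjusted p = 4.37e-07). The second PPAT probe set had the same course, with a log2 ratio of 2.10 between these ages (adjusted p = 1.1e-07).

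PAICS encodes a later enzyme of the route, which carboxylates the imidazole ring and joins aspartate to it. The PAICS probe set of higher signal read 12.02, 11.89, 11.85 and 12.03 at E16, 11.70, 10.69, 11.68 and 11.72 at E18, and 11.32, 10.64, 10.69 and 11.05 at E20. It read 12.74, 12.86, 12.72 and 13.06 at D1, 13.58, 13.48, 13.20 and 13.12 at D3, and 13.31, 13.04, 13.11 and 13.39 at D9. Again no hatchling liver overlapped an embryo liver, and E18 replicate 2 stood about 1 unit under the other livers of its age. PAICS averaged 12.85 ± 0.15 at D1 and 10.92 ± 0.32 at E20 (SD, n = 4 each), a 3.79-fold rise (log2 ratio 1.92 ± 0.18 SE, adjusted p = 1.86e-07).

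In D1 against E20, PPAT, PAICS and XDH were thus the 3 of 7 members called higher, against 3.44% of the named genes, and 0 were called lower, against 2.28%. In D9 against E16, the same 3 genes were called higher (3 of 7, against 6.28% of the named genes), and 0 members were called lower (6.48%). These comparisons share livers with that of hatchlings against embryos and are not independent of it. The log2 ratios over that longest span were 3.67 ± 0.26 for XDH, 1.33 ± 0.20 for PPAT and 1.26 ± 0.18 for PAICS (SE). In the ordering of age means, both PPAT and PAICS ran D3, D9, D1, E16, E18 and E20 from high to low, and D1 and E16 were the only neighbours in that order that differed (adjusted p = 0.000283 for PPAT and 0.00171 for PAICS).

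**Figure D2:**
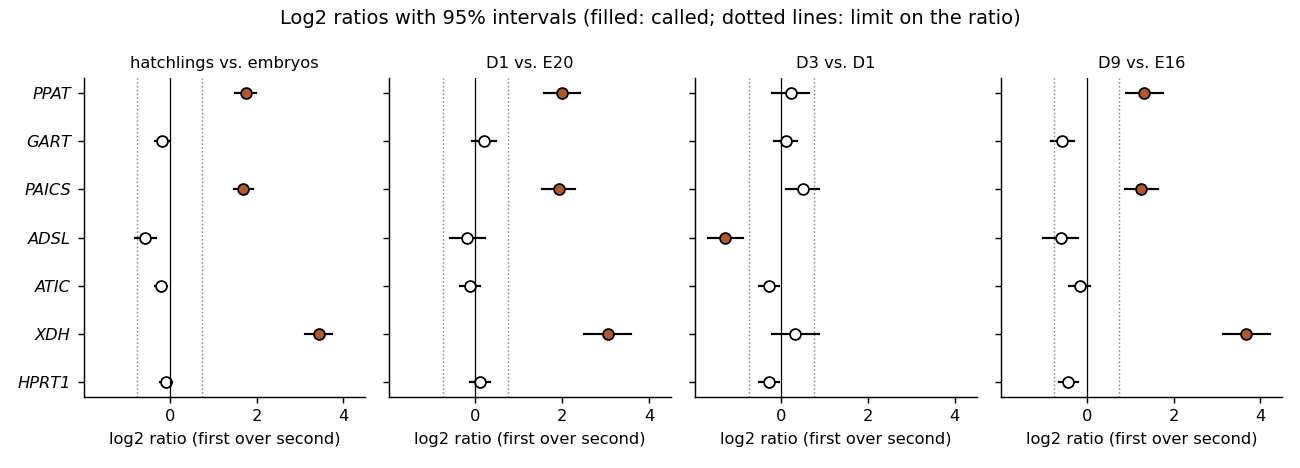
Log2 ratios of the 7 measured members in 4 comparisons, later age over earlier age, with 95% confidence intervals from limma. Filled points are called, and dotted lines mark the limit of 0.75. XDH, PPAT and PAICS are called in 3 of the comparisons and ADSL in D3 vs. D1.

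The fall before hatching appeared in both intervals, and its division between them depended on E18 replicate 2. In E18 against E16, 0 members were called higher (against 0.215% of the named genes) and 0 lower (1.37%), with log2 ratios of -0.51 for PPAT and -0.50 for PAICS. In E20 against E18, again 0 were called higher (2.4%) and 0 lower (1.83%), PAICS having a log2 ratio of -0.52 with an adjusted p of 0.0957. Without E18 replicate 2 this PAICS ratio became -0.77 and was called. On hybridization day 2, which holds that array, PAICS had log2 ratios of -1.20 in E18 against E16 and -0.05 in E20 against E18. On days 1, 3 and 4 PAICS had -0.33, -0.18 and -0.31, then -0.38, -0.98 and -0.67. PPAT had -0.95 and then -0.02 on day 2. On the other days PPAT had -0.40, -0.08 and -0.60, then -0.14, -0.49 and -0.56. Over both intervals, in E20 against E16 (a comparison added after the values were seen), 2 of 7 members were called lower, against 3.8% of the named genes, and 1 was called higher, against 2.36%. The log2 ratio was -1.03 ± 0.18 (SE, adjusted p = 0.000562) for PAICS and -0.81 ± 0.20 (SE, adjusted p = 0.0117) for PPAT. The PPAT call was lost without E16 replicate 4 (-0.65) and without E20 replicate 2 (-0.67). The second PPAT probe set was also called lower in E20 against E16, at -0.82 ± 0.19 (SE, adjusted p = 0.00721). Its dependence on single arrays was not examined. The member called higher was ADSL.

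ADSL, adenylosuccinate lyase, acts both on the way to IMP and in the conversion of IMP to AMP, and it had a course unlike that of PPAT and PAICS. Its livers read 12.59, 12.63, 12.79 and 12.26 at E16, 13.17, 12.995, 13.01 and 13.23 at E18, and 13.80, 13.97, 13.71 and 13.25 at E20. They read 13.46, 13.70, 13.51 and 13.28 at D1, 12.61, 12.19, 12.41 and 11.61 at D3, and 12.02, 11.81, 12.48 and 11.58 at D9. The livers of E16, E18 and E20 did not overlap from one age to the next, and all 4 livers at D3 lay under all 4 at D1. The log2 ratio was 1.11 ± 0.19 (SE, adjusted p = 0.000438) in E20 against E16. The livers of D1 and E20 overlapped, with a log2 ratio of -0.19 (95% confidence interval from -0.60 to 0.21, adjusted p = 0.675).

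ADSL averaged 12.21 ± 0.43 at D3 and 13.49 ± 0.17 at D1 (SD, n = 4 each), 2.44-fold lower in the fed D3 chicks (log2 ratio -1.29 ± 0.19 SE, adjusted p = 0.000124), and was lower on all 4 hybridization days. In the same comparison 3 of 7 red cell markers were called higher, all of them globin genes. The 4 not called had log2 ratios of 0.17, 0.10, 0.09 and -0.30. Mean levels of that list ran from 8.06 to 8.49 at D3 and from 7.43 to 8.05 at D1. Of 4 granulocyte markers, 2 were called lower, and the 2 not called had log2 ratios of 1.18 and -0.06. Mean levels of the granulocyte list ran from 7.43 to 8.34 at D3 and from 8.22 to 9.23 at D1. ADSL was the 1 of 7 members called lower in D3 against D1, against 1.88% of the named genes, while 0 were called higher (2.63%). In D9 against D3, 0 members were called higher (0.969%) or lower (1.84%), and ADSL had a log2 ratio of -0.23. Because its embryonic and hatchling courses ran in opposite directions, the pooled ADSL ratio in hatchlings against embryos was only -0.56 (adjusted p = 0.000385), under the limit on size.

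GART, whose protein carries several of the early activities between the PPAT product and the imidazole ring, was lower at D9 than at E16, and whether that difference was called depended on the probe set. The GART probe set of highest signal averaged 12.95 ± 0.07 in E16, 12.89 ± 0.19 in E18 and 12.43 ± 0.29 in E20 livers, and 12.63 ± 0.03 in D1, 12.73 ± 0.18 in D3 and 12.39 ± 0.24 in D9 livers (SD, n = 4 each). Its log2 ratio in D9 against E16 was -0.56 (adjusted p = 0.00286), under the limit on size, and so was the -0.74 of the second probe set. The remaining, dimmest GART probe set was called in the same comparison, at -1.38 ± 0.15 (SE, adjusted p = 5.26e-07). It was also called lower before hatching, in E20 against E16, at -0.88 ± 0.15 (SE, adjusted p = 0.000425), where the brightest GART probe set had -0.51 and the second -0.62, neither of them called.

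In that dimmest GART probe set the livers read 11.12, 11.12, 11.13 and 11.39 at E16, 10.71, 10.73, 11.32 and 11.10 at E18, and 10.40, 10.55, 10.16 and 10.13 at E20. They read 10.57, 10.39, 10.84 and 10.64 at D1, 9.90, 10.17, 10.61 and 10.61 at D3, and 9.89, 9.75, 9.88 and 9.73 at D9. All 4 livers at D9 lay under every other liver of the series, but the highest read 9.892 against 9.897 in the lowest D3 liver. In D9 against D3 this probe set was not called (log2 ratio -0.51, adjusted p in limma = 0.0666). No GART probe set had the rise at hatching seen in PPAT and PAICS, with log2 ratios of 0.20, 0.32 and 0.30 in D1 against E20 and adjusted p values from 0.236 to 0.449. The gene table of RefSeq (assembly GRCg7b) lists GART as overlapping GART-B and SON, and whether any of these probe sets also reads a neighbour was not tested.

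**Figure D3:**
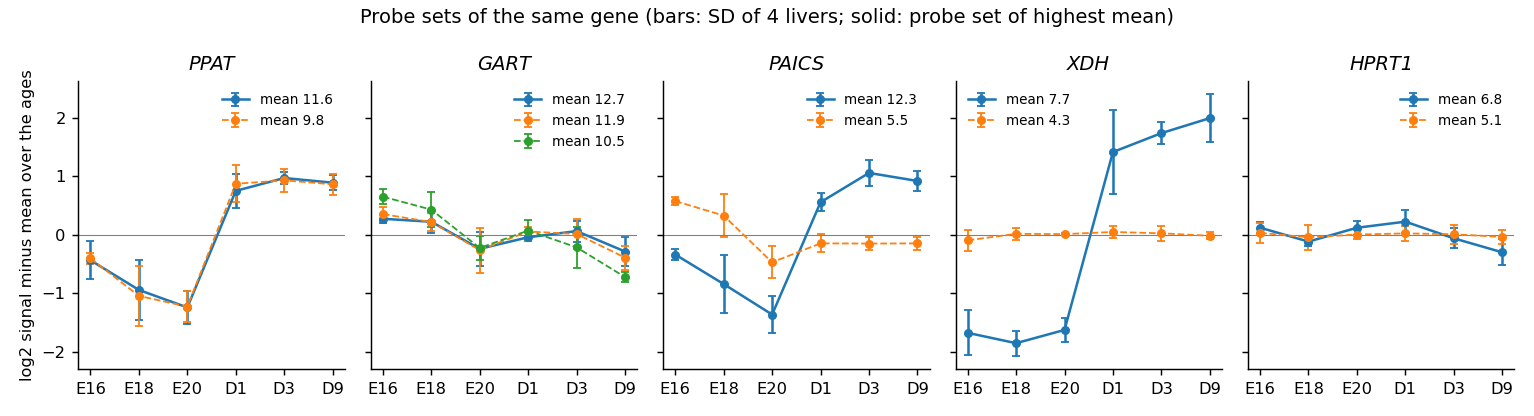
Age means of every probe set of the 5 members with more than 1 probe set, each centred on its own mean over the 6 ages, with the SD of 4 livers as bars. Both PPAT probe sets coincide, the 3 GART probe sets fall to different depths, and the dim probe sets of XDH and HPRT1 do not follow the brighter ones. The dim PAICS probe set falls with the brighter one before hatching and parts from it afterwards.

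The second PAICS probe set, whose age means did not exceed 6.04, did not follow the brighter one after hatching. Its livers read 5.95, 6.09, 6.07 and 6.07 at E16, 5.48, 5.48, 6.10 and 6.12 at E18, and 5.24, 5.19, 4.65 and 4.91 at E20. Hatchling livers lay between 5.11 and 5.47, under all the E16 livers. Before hatching this dim probe set did fall with the brighter one. In E20 against E16 its log2 ratio was -1.05 ± 0.14 (SE, adjusted p = 2.04e-05), against -1.03 for the brighter one, both called. It was also called lower in E20 against E18 (log2 ratio -0.80 ± 0.14 SE, adjusted p = 0.000841). Its log2 ratio in D1 against E20 was 0.32 (adjusted p = 0.181). It was -0.29 in hatchlings against embryos (adjusted p in limma = 0.00725) and -0.72 in D9 against E16 (adjusted p = 0.000544), neither of them called. With the mean of both probe sets in place of the brighter one, the PAICS ratio was 0.70 in hatchlings against embryos and 0.27 in D9 against E16, neither of which was called.

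ATIC, which closes the purine ring to give IMP, had the narrowest range of age means among the members, 0.40. Its embryo livers read 13.35 to 13.61 (E16), 13.59 to 13.69 (E18) and 13.53 to 13.82 (E20), and its hatchling livers 13.47 to 13.63 (D1), 13.21 to 13.37 (D3) and 12.87 to 13.56 (D9). It was called in no comparison, and its log2 ratio in hatchlings against embryos was -0.21 ± 0.07 (SE, adjusted p = 0.016). HPRT1, the salvage enzyme, read 6.34 to 7.32 in hatchling livers and 6.66 to 7.10 in embryo livers. The log2 ratio of HPRT1 in hatchlings against embryos was -0.09, with a 95% confidence interval from -0.22 to 0.04. Its largest ratio among the comparisons was -0.42 ± 0.11 (SE, adjusted p = 0.00726) in D9 against E16, below the limit on size, and its second probe set varied by 0.08 between age means.

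PPAT and PAICS stood out by their likeness, as read by the probe set of highest signal of each gene. The dim PAICS probe set did not share it after hatching. In chicken, these 2 genes lie next to each other and are transcribed in opposite directions from a short shared region, and the RefSeq gene table lists them as overlapping. Whether a probe set of either gene also reads the other, and whether the shared region bears on their likeness, was not tested. Likeness was measured as the root mean square difference between the 6 age means of a pair of genes after each was centred on its own mean. Of the 13008 other named genes, PAICS was the nearest to PPAT, at 0.12 log2 units. The next were SEC14L2, a lipid-binding protein, at 0.16, CEP78, a centrosomal protein, at 0.23, PSAT1, an enzyme of serine synthesis, at 0.25, and CLDN2, a tight junction protein, at 0.26. The distance of PPAT was 0.98 to GART, 1.03 to ATIC and 1.38 to ADSL. Among the members, the next nearest pairs were ATIC and HPRT1 at 0.16, GART and HPRT1 at 0.24 and GART and ATIC at 0.24, these being the members with the narrowest ranges of age means.

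Livers of the same age also varied together in PPAT and PAICS. Across 24 livers, the deviations from the age means had a Pearson r of 0.71 (permutation p = 0.00161, adjusted over 21 pairs of members p = 0.0169) and a Spearman rho of 0.59 (permutation p = 0.00134, adjusted p = 0.0141). The deviations had the same sign in 19 of 24 livers. Without the 2 livers farthest from the median of PPAT, r was 0.59, and within the 4 hybridization days it was 0.49, 0.95, 0.58 and 0.68 over 6 livers each. With deviations also centred on the day, r was 0.73 but its permutation p, adjusted, was 0.0743. Without E18 replicate 2 and D9 replicate 1, r was 0.48 (adjusted permutation p = 0.159), so the call rested on those arrays. ADSL and ATIC were the other pair that passed, with r = 0.68 (permutation p = 0.00112, adjusted p = 0.0169) and rho = 0.69 (permutation p = 0.001, adjusted p = 0.0141). Without the 2 livers farthest from the median of ADSL, r was 0.70, but within days it was 0.18, 0.20, 0.82 and 0.42, and with the day centred it was 0.38 (adjusted permutation p = 0.544), so that relation did not hold within all days. Without E18 replicate 2 and D9 replicate 1 it was 0.70 (adjusted permutation p = 0.0794). Replicate 4 lay under its age mean in both ADSL and ATIC at every age but E18. The other 19 pairs had adjusted permutation p values of 0.308 or more for r.

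**Figure D4:**
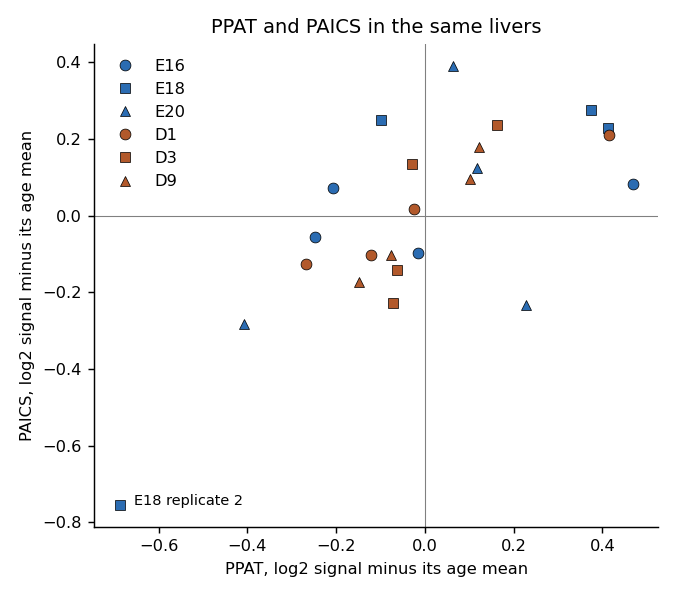
PPAT against PAICS in 24 livers, each as the log2 signal minus the mean of the liver's age. Livers high for their age in PPAT tend to be high in PAICS (r = 0.71), and E18 replicate 2 lies lowest on both axes.

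By the same distance, XDH had no neighbour as close as PPAT had. The distance is not scaled to the range of age means, which was 3.85 for XDH and 2.21 for PPAT. It therefore does not show that the course of XDH was the rarer one. The 5 named genes with the nearest course were AGPAT2, an acyltransferase of triacylglycerol and phospholipid synthesis, at 0.32, SLC51B, a subunit of a bile acid exporter, at 0.35, GLDC, the decarboxylase of glycine cleavage, at 0.35, LGALS1B at 0.46 and BST1, an ADP-ribosyl cyclase of the cell surface, at 0.56. AGPAT2 averaged 10.27 at D1 and 7.83 at E20, and SLC51B averaged 10.67 at D1 and 7.31 at E20. Like XDH, all 5 genes had lower means at every embryonic age than at any hatchling age. LGALS1B and BST1 kept rising after D1. LGALS1B averaged 9.51 at D1 and 11.27 at D3, and BST1 averaged 9.46 at D1, 10.21 at D3 and 10.62 at D9. These likenesses over 6 age means describe the courses, with no test.

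Enzymes that feed the route were examined as lists. Of all named genes, 5.42% were called higher and 4.11% lower in hatchlings against embryos, and 3.44% and 2.28% in D1 against E20. The shares were 6.28% and 6.48% in D9 against E16, and 2.36% and 3.8% in E20 against E16. These shares also stand beside the list counts below, and a count of 1 gene in a short list says little beside them. PRPP supply, which covers the PRPP synthetases and the pentose phosphate pathway, had 0 of 6 measured genes called in any of the 8 comparisons, and its median log2 ratio in D1 against E20 was 0.07. Among the donors of nitrogen and one-carbon units, 4 of 19 measured genes were called higher and 0 lower in hatchlings against embryos, with a median log2 ratio of 0.08. GLDC, the decarboxylase of glycine cleavage, had a log2 ratio of 3.03 ± 0.21 (SE), PSAT1 1.43 ± 0.14, the glutamine synthetase GLUL 1.14 ± 0.16, and PSPH, the last enzyme of serine synthesis, 1.08 ± 0.20. In D1 against E20, 6 of the 19 were called higher and 0 lower, GLDC averaging 11.79 at D1 and 8.62 at E20, and GLUL 12.45 at D1 and 11.33 at E20. Lower calls appeared in other comparisons. In D9 against E16, 3 of the 19 were called higher and 2 lower, the lower ones being PHGDH, the first enzyme of serine synthesis (-0.85 ± 0.15 SE), and AMT of the glycine cleavage system (-0.94 ± 0.27 SE), so that PHGDH ran opposite to PSAT1 and PSPH. In E20 against E16, 0 were called higher and 3 lower.

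Beyond IMP, IMPDH2, which opens the branch to GMP, was the 1 of 4 measured genes of the AMP and GMP branches called higher in hatchlings against embryos (log2 ratio 0.86 ± 0.09 SE), and none was called lower. Of 18 measured genes of salvage and turnover, 2 were called higher and 1 lower in that comparison. Among all named genes the shares there were 5.42% higher and 4.11% lower. GDA, which deaminates guanine to xanthine and so delivers a substrate of XDH, had a log2 ratio of 1.56 ± 0.13 (SE), with age means of 4.06 (E16) and 4.04 (E18), near the floor, 4.44 (E20), 5.56 (D1), 6.03 (D3) and 5.63 (D9). The ratio of GDA thus rests on embryonic values close to the floor. DCK, deoxycytidine kinase, had 1.26 ± 0.12 (SE), and LACC1, known in mammals as a purine nucleoside enzyme of macrophages, had -0.76 ± 0.11 (SE).

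XDH needs a molybdenum cofactor. Of 9 measured genes of the cofactor's synthesis and use, MOCS1, which starts the synthesis, was the 1 called higher in hatchlings against embryos (log2 ratio 1.15 ± 0.12 SE). Among the named genes 5.42% were called higher in that comparison. MOCS1 averaged 8.77 at D1 and 7.49 at E20, the same interval in which XDH rose. Of 6 measured genes in a list of urate transporters and their relatives, 2 were called higher in hatchlings against embryos. ABCC4, an efflux pump that carries urate, had a log2 ratio of 1.19 ± 0.09 (SE). SLC17A9, a vesicular nucleotide transporter of the same family as some urate carriers and not itself known as one, had 0.76 ± 0.11 (SE). ABCC4 did not follow XDH, since it averaged 7.92 at E20 and 6.28 at E18, and 7.79 at D1. In D1 against E20, SLC2A9, a urate transporter of the liver, was called higher (1.22 ± 0.23 SE) and ABCG2, an efflux pump, was called lower (-0.83 ± 0.16 SE), both named after their values were seen. At D9, SLC2A9 averaged 7.64, against 7.79 at E16.

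**Figure D5:**
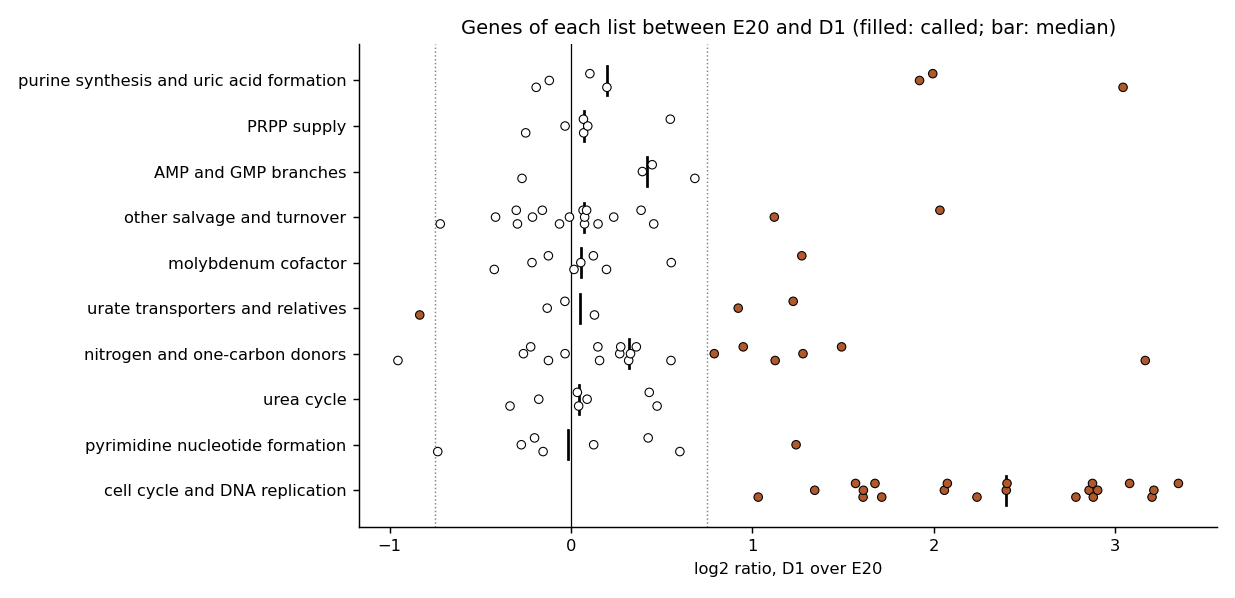
Log2 ratios of D1 over E20 for the measured genes of each list, 1 point per gene, filled where called, with the list's median as a bar and dotted lines at 0.75 in both directions. The purine genes split into 3 called and 4 near 0, while all 21 genes of the cell cycle list are called higher.

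Nucleotide routes outside purine synthesis and genes of proliferation were set beside the members. Of 8 measured genes of pyrimidine nucleotide formation, 1 was called higher and 1 lower in hatchlings against embryos, against 5.42% and 4.11% of the named genes. The higher one was UCK2 (log2 ratio 1.91 ± 0.11 SE), a kinase that salvages uridine and cytidine and is no part of de novo synthesis, and the lower one was CTPS2 (-0.77 ± 0.11 SE), which makes CTP from UTP. CAD, DHODH and UMPS, which build UMP de novo, were not called, and their log2 ratios in D1 against E20 were -0.15, 0.60 and -0.20. Of 7 measured urea cycle genes, only the argininosuccinate synthase ASS1 was called (1.59 ± 0.10 SE), and OTC lay near the floor at all 6 ages.

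All 21 measured genes of cell cycle and DNA replication were called higher in hatchlings against embryos (median 1.10) and in D1 against E20 (median 2.40). In the first of these comparisons RRM2, a subunit of ribonucleotide reductase, had a log2 ratio of 2.52, TK1 2.22, MKI67 1.53 and CDC45 1.43. The mean level of this list ran from 6.89 to 7.53 in E20 livers, from 9.17 to 9.64 in D1 livers, from 9.56 to 9.78 in D3 livers and from 8.09 to 8.72 in D9 livers. Like PPAT and PAICS it was lower at E20 than at E16, 20 of 21 genes being called lower. In D9 against D3, 20 of the 21 were called lower (median -1.46), whereas the log2 ratio was -0.08 for PPAT and -0.14 for PAICS. Markers of red cells also moved in the embryo, 5 of 7 being called lower in E20 against E16, with mean levels from 7.51 to 7.86 at E20 and from 9.24 to 9.28 at E16. Markers of other cells differed between ages as well. In E20 against E16, 3 of 5 bile duct cell (cholangiocyte) markers were called lower (median -0.90), CFTR being near the floor. In that comparison 2 of 10 macrophage markers were called higher (median 0.70). In D1 against E20, 0 of those 10 were called higher and 1 lower (median -0.28). In D9 against E16, 6 of 10 macrophage markers were called higher and 1 lower (median 0.96), with mean levels from 10.19 to 10.69 at D9 and from 9.29 to 9.77 at E16. In hatchlings against embryos, 3 of 9 stellate cell and fibroblast markers were called lower (median -0.52), ACTA2 being near the floor at all ages, and so were 2 of 4 granulocyte markers (median -0.98). Mean levels of the stellate cell and fibroblast list ran from 8.46 to 8.85 in hatchling livers and from 8.88 to 9.44 in embryo livers. The part of proliferation or of any of these cell types in the courses of the purine genes was not tested.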

How the data were processed

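The authors deposited log2 values from RMA, which corrects background, equalizes the arrays' distributions and summarizes each probe set, and the submitters' processing notes name limma 3.30.13. RMA draws the arrays to 1 distribution, so a shift shared by most transcripts is not visible. The genome build behind the probe annotation is not given in the sources used here. Removing 96 control probe sets from 38535 left 38439 for testing. A single symbol was given for 27168 of these, more than 1 for 177, and none for 11094. A gene was represented by its probe set of highest mean over the 24 arrays, which gave 13009 named genes.

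Probe sets were fitted in limma 3.58.1 (R 4.3.3) with 1 mean per age over all 24 arrays and no block, with 18 degrees of freedom for the residuals and 3.81 from the prior. P values are two-sided moderated tests after Benjamini-Hochberg over all tested probe sets. A call needed an adjusted p of at most 0.05 and an absolute log2 ratio of at least 0.75, the limits of the paper. Hatchlings against embryos compares the means of the age means. The fit was tested on simulated data.

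Co-variation used deviations from age means with 100000 two-sided permutations within ages (Python 3.11.15, numpy 2.4.6, scipy 1.17.1), with Benjamini-Hochberg over 21 pairs. Figures used matplotlib 3.10.9. The replicate numbers were taken to pair the livers, since the paper's methods place 1 replicate of each age on each hybridization day. Deviations over all probe sets correlated by 0.071 on average over 60 same-day pairs of arrays and by -0.023 over 180 pairs of different days. The same-day mean was 0.004, 0.045, 0.060 and 0.175 on days 1 to 4 (15 pairs each), and the lowest pair of day 4 had 0.029.

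The named genes are all members with all probe sets, up to 4 called genes per list with the largest ratio in hatchlings against embryos (or 2 called in D3 vs. D1 where none was), the 5 courses nearest to XDH and to PPAT, HINTW and NPPA. Members, lists and this rule were chosen with earlier results of these data known. Alternatives were the day as a block, another normalization, array weights, a trended robust variance, a filter on low signals, fewer arrays in the fit, other choices of probe set and leaving out arrays. Sequences and promoter motifs were not analysed here.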

Additional observations from a re-analysis of the deposited data

Results flagged for a closer look

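In 7 of 78 sets of 4 livers (13 probe sets at 6 ages), 1 liver lay farther from the nearest other than Dixon's 95% limit allows, as a share of the whole range, and chance alone flags about 1 set in 20. PAICS was lowest in E18 replicate 2, at 10.69 against 11.68 to 11.72 in the other E18 livers, and this is the array on which the W-linked HINTW was high. ATIC was lowest in D9 replicate 4, at 12.87 against 13.52 to 13.56, and in E16 replicate 4, at 13.35 against 13.60 to 13.61. The second probe set of PPAT was highest in D1 replicate 4, at 11.16 against 10.50 to 10.55. GART was lowest in D9 replicate 2, at 12.02 against 12.48 to 12.53, in its probe set of highest signal, and highest in E16 replicate 4, at 11.39 against 11.12 to 11.13, in its dimmest probe set. The second probe set of PAICS was lowest in E16 replicate 1, at 5.95 against 6.07 to 6.09. Replicate 4 recurs among these livers, and day 4 had the highest mean correlation of deviations between same-day arrays (0.175). What set these livers apart was not tested.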

How the results depend on the processing

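The 13 called ratios of members kept their direction in all 266 alternatives and their call in 261 of them. The exceptions were PAICS with the mean of its probe sets (hatchlings against embryos and D9 against E16) and PPAT in E20 against E16 with array weights (-0.69), without E16 replicate 4 and without E20 replicate 2. The 43 ratios not called stayed uncalled with the same sign in 769 of 791 alternatives. Of the others, 16 changed sign without being called and 6 were called, among them ADSL in D9 against E16 without D9 replicate 3 (-0.77) and GART in D9 against E16 with its most variable probe set (-1.38) or with its probe sets averaged (-0.89). The number of members called in E20 against E18 was 1 without E18 replicate 2 and without both E18 replicate 2 and D9 replicate 1, against 0 in the full fit, and it ranged from 0 to 1 when single arrays were left out. The replicate block, with the hybridization day in the same fit, changed no call of a member. With deviations also centred on the day as a replicate block, 0 pairs of members passed, against 2 without it, and r for PPAT and PAICS was 0.73. Without both E18 replicate 2 and D9 replicate 1, again 0 pairs passed and r was 0.48. Over all probe sets, fitting only the arrays compared called 194 in E18 against E16, against 327 with all arrays. With 4 livers per age and 1 array per liver, small differences are not resolved, and a probe set near the floor, as the second one of XDH, says little about its gene.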
